A study of Drosophila melanogaster with 14 samples.

Results

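The genes described are those of the mitochondrial ribosomal proteins, taken as all rows of the RNA count table whose FlyBase symbol begins with mRpL (large subunit) or mRpS (small subunit). The rule found 72 of the 17807 genes in the table, 47 named mRpL and 25 named mRpS. A further symbol of this kind, mRpS5, matched no row and was not analysed here. The RNA came from wing imaginal discs (the sheets of larval epithelium that form the adult wing and notum) of wandering third-instar larvae of Drosophila melanogaster kept at 25 °C. The 3 control libraries, called wildtype, came from yw larvae. The other 3 came from yw larvae that also carried nub[1], an allele of the POU domain gene nubbin, and are called nub1. The yw background was thus shared by both groups, and the labels give no driver, transgene, sex or pooling for these samples.

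Mitochondria keep a ribosome of their own, which descends from a bacterial ribosome and translates the few mRNAs of the mitochondrial genome. Its 2 rRNAs are encoded in the mitochondrial DNA, whereas all of its proteins are encoded in the nucleus, made on cytoplasmic ribosomes and imported. Part of these proteins have bacterial counterparts and keep the bacterial number in their name, and the rest were added in the course of mitochondrial evolution. The proteins this ribosome makes are subunits of the respiratory chain and of the ATP synthase.

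Total counts per library ran from 58434785 to 83448836, and the members together took 0.193% to 0.207% of them. Values below are CPM (read counts relative to the library total) scaled by the trimmed mean of M-values (TMM), and the nub1 to wildtype difference was tested over all 9186 genes that passed the filter on low counts with edgeR's quasi-likelihood test. In the check of the genotype, nub counts were 321 to 343 CPM in wildtype and 7.38 to 13.1 CPM in nub1 libraries, and those of its neighbouring paralog pdm2 were 56.6 to 57.4 and 0.0823 to 0.156 CPM, so that the mutant discs had little of either RNA. Of the nub1 libraries, replicate 3 stood apart, at 31.7 and 24.5 chi-square per degree of freedom from replicates 1 and 2, while those 2 lay 4.09 apart and wildtype pairs 15.3 to 17.4. Every marker gene listed for the disc and for other cells passed the filter. The wing disc markers vg, ap, wg, dpp and hh were present in every library, with a summed level of 1103 to 1132 CPM in wildtype and 1028 to 1100 CPM in nub1. Of these 5 genes 1 rose and 3 fell, with log2 fold changes from -0.42 to 0.09. Of markers of other cells, the 3 tracheal genes summed to 826 to 876 CPM in wildtype and 1207 to 1265 CPM in nub1, of which verm and serp rose and trh fell, and the 4 muscle genes, which all rose, to 13.8 to 14.97 and 31.9 to 38.1 CPM. The myoblast sum was 138 to 151 and 141 to 166 CPM, the haemocyte sum 29.2 to 57.1 and 55.6 to 60.7 CPM, the fat body sum 14.9 to 42.9 and 14.3 to 16.7 CPM, and the salivary gland sum 6.35 to 7.71 and 1.75 to 2.53 CPM. Within these lists 2 of 4 myoblast markers rose and 1 fell, 1 of 3 haemocyte markers rose, 1 of 4 fat body markers rose and 1 fell, and all 4 salivary gland markers fell. Their part in any result below was not tested. The labels do not state whether replicates are separate pools of larvae, and the p-values therefore reflect how far these libraries differ, possibly for technical reasons only.

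The summed level of the mitochondrial ribosomal protein genes differed between the genotypes by less than the spread between libraries. It was 1939, 2082 and 2002 CPM in wildtype replicates 1 to 3 and 1965, 1980 and 2032 CPM in nub1 replicates 1 to 3, or 2007 ± 71.6 against 1992 ± 35.2 CPM (SD, n = 3). All nub1 values lay inside the wildtype range. Sorted by name only, the mRpL genes summed to 1284 ± 50.2 CPM in wildtype and 1270 ± 22.7 CPM in nub1. The mRpS genes summed to 724 ± 22.9 and 723 ± 12.7 CPM (SD, n = 3). In a bulk sample of this kind, fewer cells of a type and less RNA per cell cannot be told apart.

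Gene by gene, 6 of 71 tested members rose and 11 fell in nub1 discs (edgeR quasi-likelihood, adjusted p under 0.05), and 54 were not called. Over all tested genes 24.4% were called higher and 23.9% lower, together 48.3%, and of the members 23.9% were called in either direction. Among the 3866 tested genes within the members' own range of mean level, 12.0 to 97.4 CPM, 47.9% were called (24.4% higher and 23.5% lower). The balance of directions changed with the scaling, to 8 higher and 9 lower under upper quartile scaling and to 13 and 8 with library sizes only. Without nub1 replicate 2, 6 members were higher and 7 lower. Without nub1 replicate 3 the counts were 5 and 10, and without both libraries numbered 3 they were 4 and 7.

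The differences of most members were small. The median log2 fold change of the 71 members was -0.0037, that of all tested genes was -0.0030, and the members' median absolute log2 fold change was 0.072, against 0.146 over all tested genes and 0.103 over tested genes in the same range of level. The changes of 68 of 71 members were under 1.2-fold, a share of 95.8%, against 65.8% of all tested genes and 81.2% of those in the same range of level. Differences of 1.2-fold or more were thus found in 3 members and in 34.2% of all tested genes. A change of at least 2-fold was seen in 0 members, in 10.9% of tested genes and in 2.95% of those in the same range of level. The median SE was 0.045 for the members, 0.046 over all tested genes and 0.039 over tested genes in the same range of level. For the 54 members that were not called, the 95% intervals of the log2 fold change lay between -0.27 and 0.28, and in 51 of them the whole interval lay within a 1.2-fold difference in either direction.

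**Figure D1:**
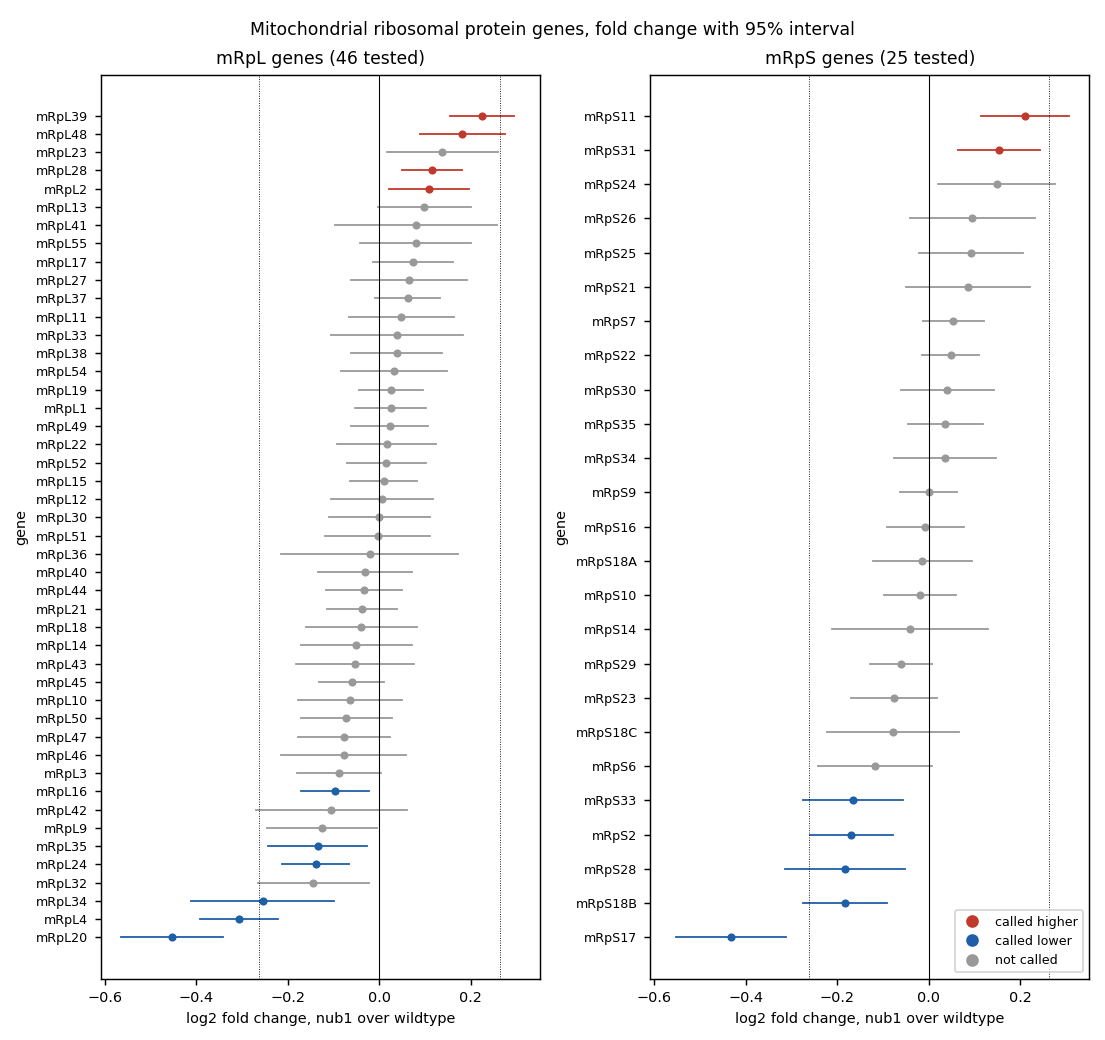
Log2 fold change of nub1 over wildtype (x axis) for each tested mRpL gene (left, 46) and mRpS gene (right, 25), with points for the estimate, bars for the 95% interval and dotted lines at a 1.2-fold change. The points of 68 of the 71 genes lie between the dotted lines, and mRpL20, mRpS17 and mRpL4 lie beyond the lower one.

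**Figure D2:**
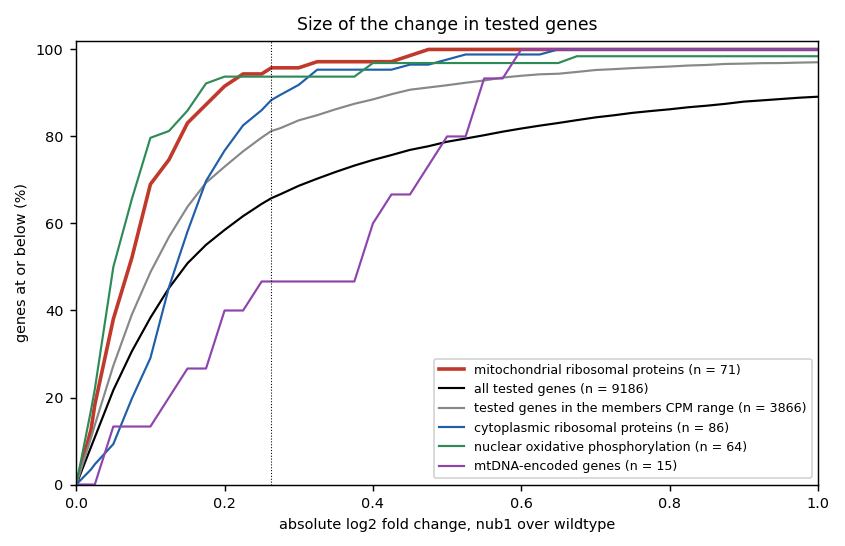
Share of tested genes (y axis, percent) whose absolute log2 fold change is at or below the value on the x axis, for the mitochondrial ribosomal protein genes and 5 other sets of genes, with a dotted line at 1.2-fold. The curve of the members reaches 95.8% at the dotted line, where that of all tested genes is at 65.8%.

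The largest falls in the large subunit were those of mRpL20 and mRpL4. The gene mRpL20 (FBgn0036335, dm6 arm 3L, 13017149 to 13017867) encodes the counterpart of a bacterial protein that binds the large rRNA early in subunit assembly. It was measured at 33.0, 37.1 and 36.5 CPM in wildtype replicates 1 to 3 and at 25.2, 26.0 and 26.6 CPM in nub1 replicates 1 to 3, a log2 fold change of -0.45 ± 0.049 (SE; edgeR adjusted p = 0.000106). Every nub1 value was under the lowest wildtype value, and the gap between the groups was wider than the range within either. The protein encoded by mRpL4 (FBgn0001995, 2L, 16328059 to 16329132) lines the tunnel through which the nascent chain leaves in bacterial ribosomes. Its levels were 36.1, 39.2 and 38.0 CPM in wildtype and 30.5, 30.3 and 30.8 CPM in nub1 libraries, a log2 fold change of -0.31 ± 0.037 (SE; edgeR adjusted p = 0.000204). The 3 nub1 values were nearly equal and all below the wildtype ones.

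Smaller falls in the large subunit were those of mRpL34, mRpL24, mRpL35 and mRpL16. For mRpL34 (2R, 16098948 to 16099337) the wildtype libraries had 15.4, 18.8 and 17.7 CPM and the nub1 libraries 14.3, 14.5 and 14.7 CPM, a log2 fold change of -0.26 ± 0.069 (SE; edgeR adjusted p = 0.0143). Wildtype replicate 1 lay close to the nub1 values, and the call was lost without both libraries numbered 3 (edgeR adjusted p = 0.0512). The bacterial counterpart of mRpL24 starts the assembly of the large subunit and sits near the tunnel exit. Its levels of 31.5, 31.7 and 32.0 CPM in wildtype and 28.4, 28.5 and 29.5 CPM in nub1 gave a log2 fold change of -0.14 ± 0.032 (SE; edgeR adjusted p = 0.00721), a small difference with tight replicates. The falls of mRpL35 (-0.13 ± 0.048; edgeR adjusted p = 0.0439) and of mRpL16 (-0.10 ± 0.033; edgeR adjusted p = 0.0379), whose bacterial counterpart helps to place tRNA at the peptidyl transferase centre, were close to the threshold. The mRpL35 call ended on leaving out wildtype 1, wildtype 3, nub1 1 or nub1 2 (edgeR adjusted p = 0.130, 0.127, 0.123 and 0.145). That of mRpL16 ended on leaving out wildtype 1, wildtype 2, nub1 1, nub1 2 or nub1 3 (edgeR adjusted p = 0.117, 0.112, 0.0830, 0.119 and 0.0744). With all 6 libraries, both calls were also lost under upper quartile scaling, library sizes only, no filter and the DESeq2 Wald test. The mRpL35 call was lost as well without both libraries numbered 3.

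In the small subunit mRpS17 fell the most. Its bacterial counterpart is among the proteins that bind the small rRNA directly. The gene (FBgn0034986, 2R, 24173665 to 24174441) was at 21.5, 24.3 and 24.0 CPM in wildtype and at 16.8, 17.2 and 17.7 CPM in nub1 libraries, giving a log2 fold change of -0.43 ± 0.053 (SE; edgeR adjusted p = 0.000204). As for mRpL20, the lowest wildtype library was well above the highest nub1 library. Smaller falls were those of mRpS18B (20.4, 21.6 and 20.5 against 18.6, 18.04 and 18.3 CPM; log2 fold change -0.18 ± 0.040) and mRpS2 (23.6, 25.1 and 24.2 against 21.01, 21.7 and 22.2 CPM; -0.17 ± 0.040), with edgeR adjusted p = 0.00528 and 0.00759. The 3 genes mRpS18A, mRpS18B and mRpS18C encode relatives of a single bacterial protein, and the other two were at -0.01 ± 0.048 and -0.08 ± 0.064 and did not pass the test. The difference between the 3 relatives was not tested.

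The falls of mRpS28 and mRpS33 were the least certain in the small subunit. For mRpS28 the libraries had 20.1, 23.2 and 21.4 CPM in wildtype and 19.9, 18.7 and 18.4 CPM in nub1 (log2 fold change -0.18 ± 0.058; edgeR adjusted p = 0.0282), and the lowest wildtype and highest nub1 values nearly met. Leaving out wildtype replicate 2, wildtype replicate 3, nub1 replicate 2 or nub1 replicate 3 ended the call (edgeR adjusted p = 0.0868, 0.0569, 0.0970 and 0.0748). So did leaving out both libraries numbered 3. The protein of mRpS33 has no bacterial counterpart. Its gene was at 14.8, 14.9 and 15.2 CPM in wildtype and 13.7, 12.6 and 13.7 CPM in nub1 (-0.17 ± 0.048; edgeR adjusted p = 0.0196), which was not called when wildtype replicate 3 or nub1 replicate 2 was left out (edgeR adjusted p = 0.0603 and 0.0881). The mRpS33 call was also lost with library sizes only and without both libraries numbered 3.

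Of the 6 members that rose, mRpL39 (FBgn0036462, 3L, 14997981 to 14999666) had the largest change. It encodes a protein of the large subunit found in mitochondria and not in bacteria. Counts were 50.8, 54.1 and 52.5 CPM in wildtype and 60.4, 61.7 and 61.7 CPM in nub1 libraries, a log2 fold change of 0.22 ± 0.031 (SE; edgeR adjusted p = 0.000421). The groups did not overlap, and mRpL39 was the second most counted member after mRpS30. The platform protein gene mRpS11 (FBgn0038474, 3R, 17072732 to 17073795) was at 26.3, 27.7 and 27.2 CPM in wildtype and 29.6, 32.3 and 31.9 CPM in nub1 (0.21 ± 0.043; edgeR adjusted p = 0.00356). The gene mRpL48 (2L, 1710462 to 1711465), whose mammalian counterpart belongs to the central protuberance of the large subunit, was at 17.7, 18.7 and 17.6 CPM in wildtype and 20.8, 20.1 and 20.4 CPM in nub1 (0.18 ± 0.041; edgeR adjusted p = 0.00617). In both genes every nub1 library lay above every wildtype library.

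The other rises were smaller. The small subunit gene mRpS31, without a bacterial counterpart, was at 22.5 to 23.7 CPM in wildtype and 25.0 to 26.2 CPM in nub1 (0.15 ± 0.039; edgeR adjusted p = 0.0115), and mRpL28 at 41.9 to 42.9 and 45.1 to 46.6 CPM (0.11 ± 0.029; edgeR adjusted p = 0.0102). Both calls were lost without both libraries numbered 3 (edgeR adjusted p = 0.0959 and 0.0694). The gene mRpL2, for the counterpart of a bacterial protein next to the peptidyl transferase centre, was at 34.6 to 37.7 and 38.5 to 40.2 CPM (0.11 ± 0.039; edgeR adjusted p = 0.0450). It was not called on leaving out wildtype 1, wildtype 3, nub1 1, nub1 2 or nub1 3 (edgeR adjusted p = 0.103, 0.0808, 0.0701, 0.0789 and 0.122). The DESeq2 Wald test with all 6 libraries did not call mRpL2 either, nor did edgeR without both libraries numbered 3. The groups did not overlap in any of the 17 called members, nor in 11 that were not called. These 28 of 71 members compare with 60.0% of all tested genes whose groups did not overlap.

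**Figure D3:**
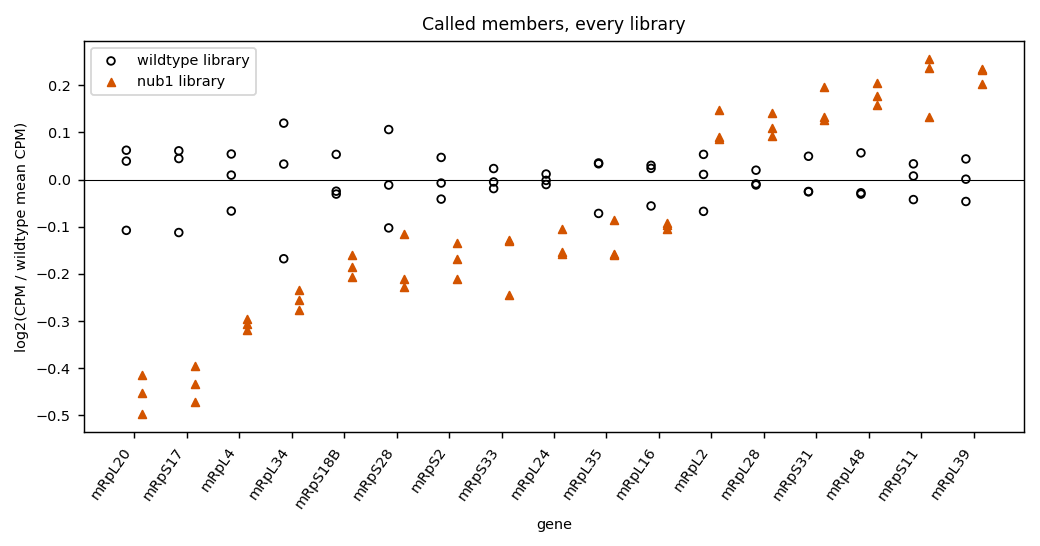
Log2 of the CPM in each library over the wildtype mean (y axis) for the 17 called members, ordered by fold change (x axis), with open circles for wildtype and triangles for nub1 libraries. In each gene all 3 triangles lie on one side of all 3 circles, and the gap is widest for mRpL20, mRpS17, mRpL4 and mRpL39.

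Among the members that were not called, mRpL32, mRpL23 and mRpS24 came closest, an example chosen after their values were seen. The gene mRpL32 was at 17.8, 20.2 and 19.3 CPM in wildtype and 16.8, 17.95 and 17.0 CPM in nub1 (log2 fold change -0.14 ± 0.053; edgeR adjusted p = 0.0504), and it was called lower without wildtype replicate 1 (edgeR adjusted p = 0.0190). For mRpL23, near the tunnel exit, the log2 fold change was 0.14 ± 0.053 (edgeR adjusted p = 0.0588), with a call without wildtype replicate 3 (edgeR adjusted p = 0.0168). For mRpS24 it was 0.15 ± 0.056 (edgeR adjusted p = 0.0554), with a call without nub1 replicate 2 (edgeR adjusted p = 0.0333). The other 51 uncalled members lay between those values, and of the 54 in all, 26 were below 0 and 28 above. Further settings called mRpL32, mRpL23 and mRpS24, among them DESeq2 size factors for mRpL32 and mRpS24 and upper quartile scaling for mRpL23 and mRpS24. The gene TBC1d7, which was not called, covers 54.0% of the span of mRpS24.

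By position in the ribosome, groups put together from textbook roles after the values were seen were mixed. The stalk genes mRpL1, mRpL10, mRpL11 and mRpL12, whose bacterial counterparts form the arms that contact elongation factors and the leaving tRNA, had 0 of 4 called, with log2 fold changes from -0.06 to 0.05. The most counted of them, mRpL12, was at 51.8, 56.5 and 49.7 CPM in wildtype and 50.9, 52.8 and 54.7 CPM in nub1, with a 95% interval of the log2 fold change from -0.11 to 0.12. Of the genes around the peptidyl transferase centre, mRpL2 rose, mRpL16 fell, and mRpL3 (-0.09) and mRpL27 (0.06) did not pass the test. Of the tunnel genes, mRpL4 and mRpL24 fell, and mRpL17 (0.07), mRpL22 (0.02) and mRpL23 did not pass. In the central protuberance 1 of 5 rose, mRpL48, and mRpL18 (-0.04), mRpL38 (0.04), mRpL40 (-0.03) and mRpL46 (-0.08) did not pass. The called shares were 0% for the stalk, 50% for the peptidyl transferase centre, 40% for the tunnel and 20% for the central protuberance. Over all tested genes the share was 48.3%, and over all members 23.9%. Groups of 4 or 5 genes are too small to set against these shares.

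Several members were measured tightly and differed little. The gene mRpS9, for the counterpart of a bacterial protein that reaches the P-site tRNA, was at 50.3, 52.0 and 51.4 CPM in wildtype and 50.5, 51.6 and 51.6 CPM in nub1, and the 95% interval of its log2 fold change ran from -0.06 to 0.06. The GTP-binding protein gene mRpS29 (Dap3 in mammals) was at 37.6, 38.1 and 37.7 against 36.05, 35.7 and 36.9 CPM (-0.06 ± 0.030; edgeR adjusted p = 0.118), and its groups did not overlap although it was not called. The highest counts were those of mRpS30, at 91.0, 95.3 and 101.7 CPM in wildtype and 95.2, 98.1 and 103 CPM in nub1 (0.04 ± 0.045; edgeR adjusted p = 0.485). Despite its name, its mammalian counterpart is placed in the large subunit, as is that of mRpS18A. Both genes were counted with the mRpS genes here. By the mean of the coefficients of variation in the 2 genotypes, the spread between replicates was widest for mRpL36, mRpL41 and mRpL42, with coefficients of variation of 11.6%, 11.8% and 11.1% in wildtype and 6.36%, 2.52% and 2.15% in nub1. In each of the 3 genes wildtype replicate 2 was the highest library.

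Levels can be compared between genes only per length, and transcript lengths were not used here, so levels were divided by the span of the gene, introns included. On that scale the highest mean levels over the 6 libraries were those of mRpL12 (66.4 CPM per kb of span), mRpL30 (62.5) and mRpS16 (50.1), and the lowest those of mRpS9 (3.83), mRpL13 (13.4) and mRpL21 (13.9). The place of mRpS9 comes from its long span of 13391 bases, as its mean of 51.2 CPM was well above the lowest among tested members, 12.0 CPM. That span is overlapped by ArgRS-m and by wtrw, which covers 73.3% of it and rose (1.48; edgeR adjusted p = 0.000148). The gene mRpL30 was at 46.7, 52.6 and 46.2 CPM in wildtype and 48.5, 47.8 and 49.2 CPM in nub1, and mRpS16 at 29.7 to 31.9 and 29.9 to 31.0 CPM. The whole span of mRpL13 lies inside that of CG10602, with means of 208 CPM in wildtype and 205 CPM in nub1. Neither mRpL30 nor mRpS16 passed the test, nor did mRpL13 (0.10 ± 0.045) or mRpL21 (-0.04 ± 0.034). The gene mRpL53 had 0 counts in all 6 libraries, which allows up to 0.0353 to 0.0525 CPM at 3 counts per library. Its whole annotated span of 1470 bases lies inside that of AGO1, with means of 711 CPM in wildtype and 695 CPM in nub1. Reads of the pair may not be separable, since the handling of overlaps and strand is unknown from the labels.

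By subunit as named, 4 of 46 tested mRpL genes rose and 6 fell, and 2 of 25 mRpS genes rose and 5 fell, with median log2 fold changes of -0.002 and -0.008. These counts are 8.70% higher and 13.0% lower for mRpL, and 8% and 20% for mRpS, beside 24.4% and 23.9% of all tested genes. The balance turned with library sizes only, to 8 higher and 4 lower for mRpL and to 5 and 4 for mRpS. Upper quartile scaling and no filter each gave 5 higher and 4 lower mRpL genes. Directions were even for mRpL without wildtype replicate 2 (5 and 5) and for mRpS without nub1 replicate 2 (3 and 3). Without nub1 replicate 1 or 2, 3 mRpL genes rose and 4 fell, and without wildtype replicate 3 or nub1 replicate 2, 3 mRpS genes fell. By the number in the name, members in the bacterial range (up to 36 for mRpL and up to 21 for mRpS) had 3 of 41 higher (7.32%) and 9 lower (22.0%, near the 23.9% of all tested genes), with a median of -0.02. With library sizes only they had 7 higher and 7 lower, with a median of 0.01, and without wildtype replicate 2 the median was 0.02. Those above it had 3 of 30 higher (10%) and 2 lower (6.67%), with a median of 0.03. With library sizes only they had 6 higher and 1 lower, without wildtype replicate 3 or nub1 replicate 2 they had 0 lower, and without wildtype replicate 2 or nub1 replicate 3 they had 1 lower. The 4 largest falls, those of mRpL20, mRpS17, mRpL4 and mRpL34, all carried a number in the bacterial range, as do 41 of the 71 tested members. Above that range 0 of 18 tested large subunit genes fell, and 2 of 12 small subunit genes did, mRpS28 and mRpS33. The name is an imperfect guide, since some genes with high numbers, such as mRpL47 and mRpS24, were later matched to bacterial families, and the difference between the classes was not tested.

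By chromosome arm, 6 of 12 tested members were called on 2L, the arm of nub and pdm2, 3 of 11 on 2R, 4 of 16 on 3L, 3 of 21 on 3R and 1 of 11 on X. Over all tested genes the called shares were 51.7% on 2L, 51.8% on 2R, 48.6% on 3L, 46.6% on 3R and 43.3% on X. The member called on 2L nearest to nub was mRpL4, at 3.74 Mb. The annotated spans of 42 of the 71 tested members overlap another gene, as do those of 13 of the 17 called ones. For most called members the overlap was a short end, such as the 73 bases that mRpL4 shares with CG4278 (0.09; edgeR adjusted p = 0.117), which was not called. In mRpL2, mRpS28 and mRpL16 the overlapping genes, Ufd1, CG10927 and arm, were called in the same direction, at 0.12, -0.22 and -0.11, and arm was far higher, at 1309 CPM in wildtype against 39.1 to 41.5 CPM for mRpL16. The overlapping gene of mRpL48, frtz, was called in the opposite direction (-0.14). Of the called members, mRpL20, mRpS17, mRpS18B and mRpS11 overlap no other annotated gene.

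The members moved together between libraries of one genotype. Wildtype replicate 2 was the highest wildtype library for 58 of 71 tested members, against 36.2% of all tested genes, and nub1 replicate 3 the highest nub1 library for 51, against 39.4% of all tested genes. In the median member the level of wildtype replicate 2 was 5.49% above the mean of wildtype replicates 1 and 3, while over all tested genes this excess was 0.162%. For cytoplasmic ribosomal protein genes it was 9.17%. Without wildtype replicate 2 the median log2 fold change of the members was 0.02, with 8 higher and 9 lower. Without nub1 replicate 3 it was -0.02.

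**Figure D4:**
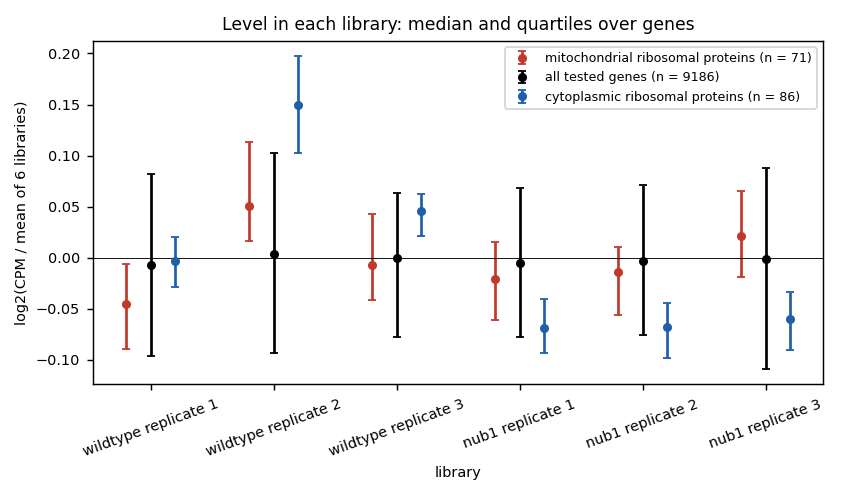
Log2 of the CPM in a library over the gene's mean of 6 libraries (y axis), as medians with quartiles over 71 mitochondrial ribosomal protein genes, 9186 tested genes and 86 cytoplasmic ribosomal protein genes, for each library (x axis). For the mitochondrial genes wildtype replicate 2 has the highest median (0.05) and wildtype replicate 1 the lowest (-0.04), so the nub1 medians (-0.02 to 0.02) lie inside the wildtype range.

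Of mitochondrial ribosomal protein genes with names outside the rule, 2 were measured alongside, tko and bonsai. The gene tko (technical knockout), for the small subunit protein S12 of the decoding centre, was at 34.6, 38.5 and 37.2 CPM in wildtype and 36.3, 35.8 and 37.3 CPM in nub1 (log2 fold change -0.01 ± 0.043; edgeR adjusted p = 0.862). The gene bonsai, for S15, was at 40.0, 42.3 and 42.1 against 40.7, 42.1 and 44.8 CPM (0.04 ± 0.042; edgeR adjusted p = 0.486). Both had overlapping groups, and their 95% intervals were -0.11 to 0.09 and -0.06 to 0.13.

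Among the genes that serve this ribosome the called share differed from list to list, from 18.2% of translation factor genes to 46.7% of synthetase genes, beside 48.3% of all tested genes. Of 11 tested translation factor genes 2 rose, mRRF2 (0.30 ± 0.060; edgeR adjusted p = 0.00332), which acts in ribosome recycling, and GatB (0.12 ± 0.040; edgeR adjusted p = 0.0300), a subunit of the amidotransferase that charges glutamine tRNA, which was not called on leaving out wildtype 3, nub1 1, nub1 2 or nub1 3 (edgeR adjusted p = 0.0736, 0.0637, 0.0751 and 0.0957). The most counted factor gene, mEFTu1, was at 124 to 136 CPM in wildtype and 132 to 137 CPM in nub1. Of 15 mitochondrial aminoacyl-tRNA synthetase genes 5 rose and 2 fell, with the smallest adjusted p for the falls of SerRS-m (-0.45 ± 0.030; edgeR adjusted p = 5.24e-06) and ArgRS-m (-0.24 ± 0.045) and the rise of PheRS-m (0.23 ± 0.046). Without wildtype replicate 3, 3 of them rose, and without both libraries numbered 3, 2 did. Of 9 genes of mitochondrial DNA transcription and maintenance, mtTFB2 (0.26 ± 0.049) and mTerf3 (0.19 ± 0.046) rose and PolG1, for the catalytic subunit of the mitochondrial DNA polymerase, fell (-0.56 ± 0.044; edgeR adjusted p = 1.51e-05). Without wildtype replicate 1, 2 fell. Of 8 RNA processing genes 0 rose and 3 fell, RNaseZ (-0.33 ± 0.031), mldr (-0.25 ± 0.056) and bsf (-0.13 ± 0.028). With upper quartile scaling or library sizes only, 1 rose.

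The RNAs that the mitochondrial ribosome consists of and translates were lower in part. Of 15 genes encoded in the mitochondrial DNA 0 rose and 11 fell (73.3%), beside 24.4% higher and 23.9% lower of all tested genes. Their median log2 fold change was -0.38, and without nub1 replicate 2, or without both libraries numbered 3, 7 of the 15 fell. The large rRNA, mt:lrRNA, which most mRpL proteins bind or pack around, was at 33111, 35900 and 34056 CPM in wildtype and 31444, 30597 and 28715 CPM in nub1 (-0.18 ± 0.049; edgeR adjusted p = 0.0132). Its groups did not overlap, and its call was lost without both libraries numbered 3 (edgeR adjusted p = 0.0761). The small rRNA, mt:srRNA, was counted at only 6.14 to 9.44 CPM and was not called (-0.13 ± 0.16; edgeR adjusted p = 0.535). The 2 rRNAs of this ribosome were thus counted at very unlike levels, so these counts may not measure rRNA content. The reason was not tested. Among the mRNAs, mt:ATPase6 was at 1125, 1184 and 1201 CPM in wildtype and 811, 809.6 and 724 CPM in nub1 (-0.58 ± 0.048; edgeR adjusted p = 2.30e-05), and log2 fold changes were -0.46 ± 0.071 for mt:ND2 and -0.38 ± 0.061 for mt:ND4. In contrast mt:CoIII (0.03 ± 0.042) and mt:Cyt-b (-0.04 ± 0.051) did not pass.

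Of 12 import and chaperone genes 0 rose and 4 fell, with Tom70, a receptor at the outer membrane, at 96.3 to 98.6 CPM in wildtype and 65.9 to 70.9 CPM in nub1 (-0.52 ± 0.032; edgeR adjusted p = 3.11e-06), Tim8 at -0.39 ± 0.033 and Tim9a at -0.16 ± 0.054. On leaving out wildtype 2, wildtype 3, nub1 1, nub1 2 or both libraries numbered 3, 2 of them fell, as with upper quartile scaling or library sizes only. Among 9 genes proposed as regulators of mitochondrial content in flies or mammals, Myc fell (-0.16 ± 0.043; edgeR adjusted p = 0.0131; 0.0512 without nub1 replicate 2), and ewg (0.02), srl (0.07) and Dref (0.03) did not pass. Of 64 tested nuclear oxidative phosphorylation genes 9 rose and 5 fell, with a median of 0.01, and the smallest adjusted p were those of ND-39 (0.38 ± 0.043), ATPsynepsilonL (0.67 ± 0.086) and SdhB (-0.19 ± 0.033). Without nub1 replicate 2 or 3, 4 rose, and without wildtype replicate 2, 16 did, while 2 fell without nub1 replicate 1 or 2. With library sizes only, 14 rose. In the cytoplasmic ribosome, by contrast, 3 of 86 tested genes rose and 48 fell, with a median log2 fold change of -0.13, and the smallest adjusted p were those of RpS30 (-0.45 ± 0.039), RpS13 (-0.31 ± 0.031) and RpL32 (-0.31 ± 0.042). Without nub1 replicate 2, 30 fell. With upper quartile scaling 38 cytoplasmic genes fell, and with library sizes only 37. Without wildtype replicate 2 their median was -0.08, with 4 higher and 49 lower. Called in either direction were 33.3% of tested import and chaperone genes, 11.1% of regulator genes and 21.9% of nuclear oxidative phosphorylation genes. For cytoplasmic ribosomal protein genes the share was 59.3%, and over all tested genes 48.3% (24.4% higher and 23.9% lower). The difference between the 2 ribosomes as sets was not tested.

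**Figure D5:**
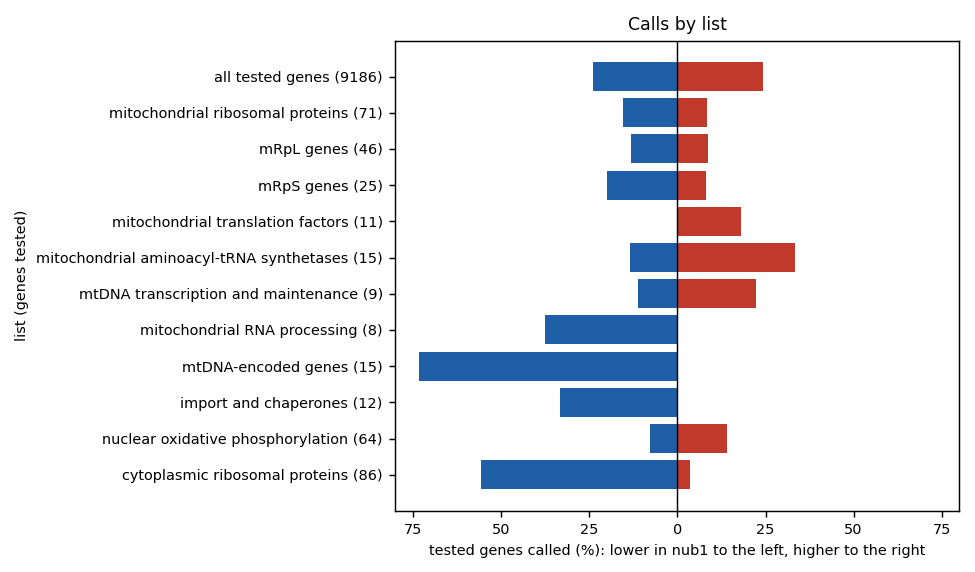
Share of tested genes (x axis, percent) called lower (bars to the left) or higher (bars to the right) in nub1 discs, for all tested genes and each list (y axis, with the number tested). The mitochondrial ribosomal protein bar spans 15.5% lower and 8.45% higher, that of all tested genes 23.9% and 24.4%, that of cytoplasmic ribosomal proteins 55.8% and 3.49%, and that of mitochondrially encoded genes 73.3% lower and 0 higher.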

How the data were processed

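The deposited values are raw read counts per gene, not normalized. Per the labels' protocols, the library kit keeps strand. Per the submitters' processing notes, the build was dm6 and the tools included HISAT2, featureCounts and bcl2fastq, whose roles and versions are not stated. The sources do not state the annotation release, the strand setting or how reads with several matches were handled. Symbols matched 17710 of 17807 IDs, and the rest held 0.679% to 0.706% of counts. Positions are those of the RefSeq Release 6 annotation, the assembly of dm6, and were found for 72 of 72 members.

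Genes passing filterByExpr (9186) were scaled by TMM to CPM (counts relative to the library total, computed from the deposited counts) and tested with edgeR 4.0.16 (robust quasi-likelihood, genotype as the only term) with Benjamini-Hochberg adjustment over all of them, in R 4.3.3. The SE is the log2 fold change over the square root of F, and 95% intervals use its degrees of freedom. Alternatives used limma 3.58.1 and DESeq2 1.42.0, and plots matplotlib 3.10.9. The code was tested on simulated counts. The floor of 3 counts covers counting error only.

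Members and lists were chosen with earlier results of these data known. Genes named are nub, pdm2, the 10 largest called changes per direction among members with no overlap between groups, the 3 highest and 3 lowest members per span, the 3 with the widest spread, those not tested, tko, bonsai, and up to 3 called genes per related list. The others are examples chosen after their values were seen, and so were the structural groups. Symbols not matched were mEFG2, mtIF2, mtIF3, gatA, gatB, HisRS-m, ThrRS-m, mRNaseZ and Tim14. The ATAC-seq and ChIP-seq samples were not analysed here.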

Additional observations from a re-analysis of the deposited data

How the results depend on the processing

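Of the 17 called members, 9 kept their direction and call under all 15 other settings of scaling, filter, test, block and library choice: mRpL20, mRpS17, mRpL4, mRpS18B, mRpS2 and mRpL24 (lower) and mRpL48, mRpS11 and mRpL39 (higher). Members called numbered 13 higher with library sizes only and 7 lower without both libraries numbered 3. At an edgeR adjusted p under 0.01, 3 of 71 tested members were higher and 6 lower. Of all 9186 tested genes 1549 were then higher and 1418 lower. Leaving out 1 library gave 5 to 8 members higher and 7 to 11 lower. The replicate block gave 7 higher and 14 lower, with 2451 for all genes called higher and 2437 for all genes called lower. Same-numbered libraries correlated at 0.043, 0.035 and 0.248 in their deviations, and not every library correlated best with its own number. The value for the libraries numbered 3 was the highest of all pairs, while wildtype 3 was at -0.19 and -0.12 with nub1 1 and 2. Whether the numbers pair samples was not tested. The sign differed from the main value under some setting for 20 of the 71 tested members, of which 0 were called, and those with values in the text follow. Without both libraries numbered 3 these were mRpL12 (-0.061), mRpL30 (-0.043), mRpL22 (-0.034) and mRpL1 (-0.0061), and outside the members mt:Cyt-b (0.033). With the upper quartile and with library sizes only they were mRpS16 (0.010 and 0.025), mRpS18A (0.0034 and 0.018), mRpS9 (0.018 and 0.032) and tko (0.0081 and 0.023), and with library sizes only also mRpL36 (0.012) and mRpL40 (0.0010). For mRpS9 they also changed with DESeq2 size factors (0.0017), no filter (0.0044), the stricter filter (0.0022) and the DESeq2 Wald test (0.0018). With 1 library left out, log2 fold changes spanned -0.035 to 0.060 (mRpL12), -0.034 to 0.063 (mRpL30), -0.024 to 0.022 (mRpS16), -0.0082 to 0.012 (mRpS9), -0.080 to 0.075 (mRpL36), -0.012 to 0.071 (mRpL22), -0.083 to 0.010 (mRpL18), -0.0014 to 0.073 (mRpL38), -0.12 to 0.0014 (mRpL46), -0.039 to 0.027 (mRpS18A), -0.046 to 0.025 (tko), -0.0013 to 0.070 (bonsai), -0.25 to 0.057 (mt:srRNA) and -0.076 to 0.020 (mt:Cyt-b). The cause was not tested.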
